A study of Homo sapiens with 9 samples.

Results

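The enzymes of the tricarboxylic acid (TCA) cycle were followed through 9 genes of the cycle, CS, IDH1, IDH2, IDH3A, OGDH, SUCLA2, SDHA, FH and MDH2, in HepG2 cells supplied with or deprived of Gln. The genes were taken by symbol from a table of 22587 genes, and all 9 were present and above the expression minimum of the test, which 11880 genes passed. HepG2 is a widely used tumor cell line from human liver, so the values describe 1 line. RNA-seq libraries came from cells with Gln added (3 libraries, with no culture time in the labels), cells deprived of Gln for 12 h (3 libraries) and cells deprived of Gln for 24 h (3 libraries). All groups were grown in high-glucose DMEM with serum before the medium was changed. GlutaMAX, a dipeptide that stands in for free Gln, is given in the labels as the treatment of the Gln added libraries, whereas the treatment protocol places it in the deprivation medium, so the groups are named here by the sample labels. The labels do not say whether the libraries came from separate cultures, and p-values then measure only the spread between these libraries, which may be technical.

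The TCA cycle oxidizes acetyl-CoA in the mitochondrion and passes the electrons to the respiratory chain. Gln feeds the cycle after its conversion to glutamate and then to 2-oxoglutarate, the substrate of OGDH. Citrate synthase (CS) starts the cycle, isocitrate dehydrogenases and the OGDH complex carry out its oxidative decarboxylations, succinyl-CoA ligase (SUCLA2) makes a nucleoside triphosphate, and SDHA, FH and MDH2 return succinate to oxaloacetate. IDH1 is the cytosolic and peroxisomal NADP-dependent isocitrate dehydrogenase. It stands outside the mitochondrion but handles the same substrate as the mitochondrial IDH2.

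Between 29621270 and 36261546 fragments on genes lay behind each library, and the members had from 1039 fragments (SUCLA2, lowest library) to 34284 fragments (IDH1, highest library). Replicates were close, with a median coefficient of variation from 2.84% (Gln added) to 4.39% (24 h) over genes above 10 FPKM (fragment counts divided by gene length and library depth). The liver label was checked against 6 hepatocyte markers, which were all detected and summed to 7246–7345 FPKM with Gln added, to 6353–6419 FPKM after 12 h and to 6149–6468 FPKM after 24 h. Of 8 markers of other cell types, 7 were in the table and summed to 35.5–37.1, 23.7–26.6 and 22.4–22.6 FPKM, nearly all of it from the smooth muscle actin gene ACTA2. VWF, COL1A1, COL1A2 and KRT7 had means under 0.1 FPKM in all groups. PDGFRB rose, from a mean of 0.156 FPKM with Gln added to 0.385 FPKM at 12 h and 0.667 FPKM at 24 h. PECAM1 had means of 0.286, 0.136 and 0.151 FPKM in the same order. The part of these shifts in the results was not tested.

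The first question was whether the mRNA of the cycle changed when Gln was withdrawn. At 12 h, 7 of the 9 genes had fallen and none had risen, against 60.2% of all tested genes called in either direction (29.1% higher and 31.0% lower). At 24 h the same 7 genes were lower than with Gln added, CS, IDH1, IDH2, OGDH, SUCLA2, FH and MDH2, against a background of 64.7% (33.0% higher and 31.7% lower). IDH3A and SDHA did not pass the test at either time. The median log2 fold change of the 9 genes was −0.27 at 12 h and −0.44 at 24 h, whereas that of all tested genes was −0.02 and 0.01. Both times were compared with the same 3 Gln added libraries, so the 2 comparisons are not independent. Tests used limma on log2(FPKM + 0.1) with Benjamini-Hochberg adjustment over all tested genes and a threshold of 0.05. These values are relative to all mRNA of a library, so they show neither the number of cells nor the amount of mRNA per cell.

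**Figure D1:**
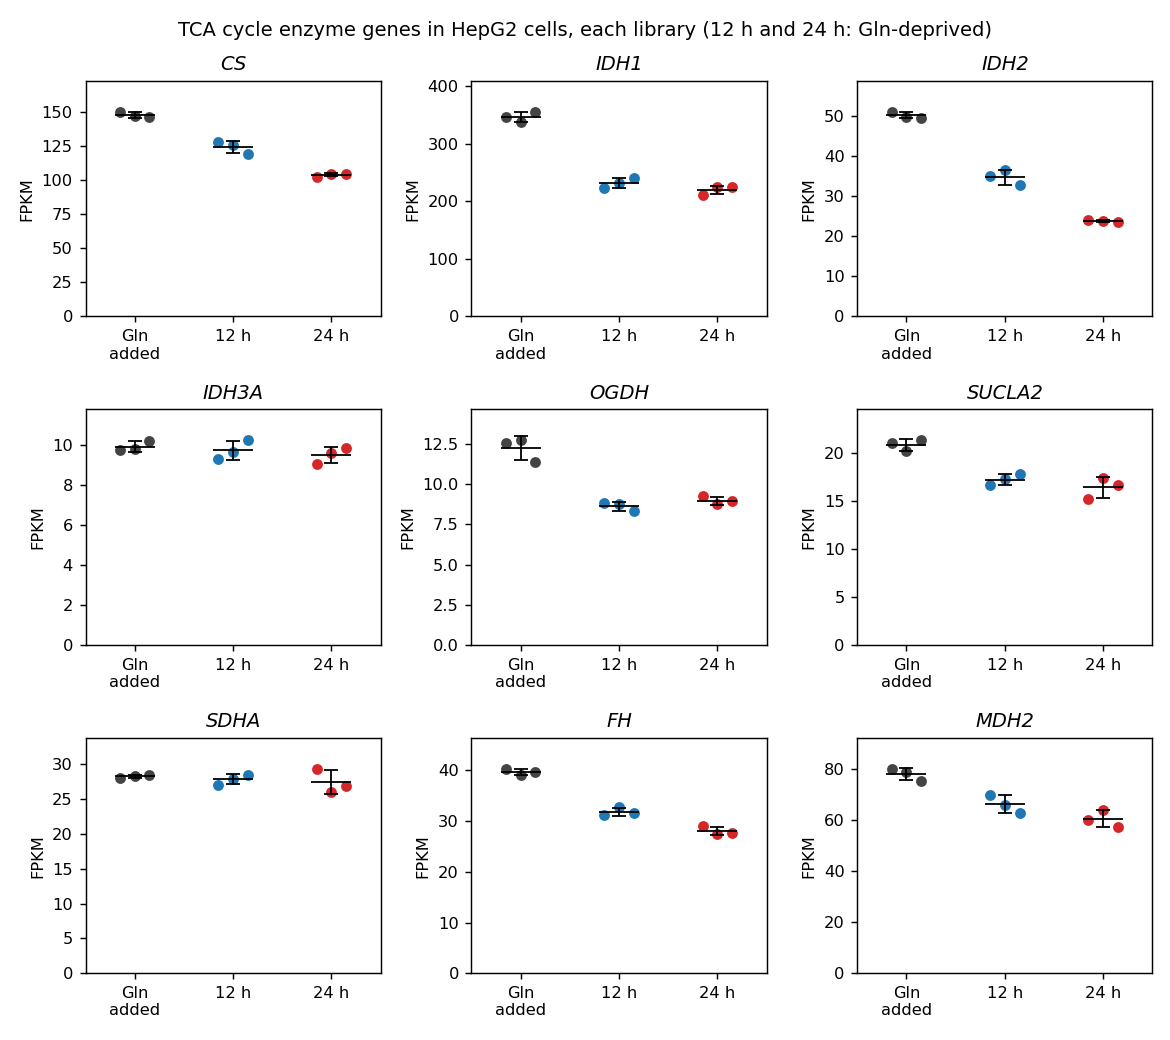
FPKM of each of the 9 genes (vertical axes, from 0, 1 panel a gene) in each library of the 3 groups, with points for libraries and bars for the mean and SD. IDH2 steps down at each time, IDH1 and OGDH sit at similar levels at 12 h and 24 h, and the libraries of IDH3A and SDHA overlap between groups.

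The genes covered a wide range of mRNA levels. With Gln added, the mean ran from 9.95 FPKM for IDH3A to 347 FPKM for IDH1, 34.9 times as much, in the order IDH1, CS, MDH2, IDH2, FH, SDHA, SUCLA2, OGDH and IDH3A, and no neighbours in this order had overlapping libraries. IDH1 was the 129th most abundant gene of the table and IDH3A the 5093rd. At 12 h only OGDH and IDH3A had exchanged places. At 24 h IDH2 had moved from the fourth to the sixth place among the members, and from rank 1202 to rank 2492 among all genes. The libraries of FH and SDHA, and those of IDH3A and OGDH, overlapped at 24 h, so their order was not resolved. Summed over the 9 genes, the libraries held 724–740 FPKM with Gln added, 550.0–556 FPKM at 12 h and 489.6–506 FPKM at 24 h. IDH1 alone made up 46.8–48.2%, 40.7–43.6% and 43.1–44.9% of these sums.

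The sequences around the start sites of 4 genes show what the promoters of called and uncalled members look like. Each line gives 250 bases before to 50 bases after the start of the annotated main transcript, from RefSeq on GRCh38.p14, read 5′ to 3′ on the strand of the gene. CS and IDH1 are the most abundant members and fell, and IDH3A and SDHA did not pass the test. Capitals mark GGGCGG, the core of an SP1 site, and CCAAT, the CCAAT box, on either strand.
CS, chr12:56300281-56300580, minus strand: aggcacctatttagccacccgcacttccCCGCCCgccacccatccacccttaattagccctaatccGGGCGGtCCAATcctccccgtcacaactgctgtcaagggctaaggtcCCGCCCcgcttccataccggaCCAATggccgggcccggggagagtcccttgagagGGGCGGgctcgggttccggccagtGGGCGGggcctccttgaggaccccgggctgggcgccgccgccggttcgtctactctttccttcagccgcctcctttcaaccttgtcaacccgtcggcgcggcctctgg
IDH1, chr2:208255022-208255321, minus strand: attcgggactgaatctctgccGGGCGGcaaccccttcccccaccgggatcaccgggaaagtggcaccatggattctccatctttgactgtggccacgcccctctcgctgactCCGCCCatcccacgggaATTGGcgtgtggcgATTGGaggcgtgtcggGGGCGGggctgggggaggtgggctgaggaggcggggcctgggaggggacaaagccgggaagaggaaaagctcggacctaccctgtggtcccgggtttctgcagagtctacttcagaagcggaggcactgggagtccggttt
IDH3A, chr15:78149112-78149411, plus strand: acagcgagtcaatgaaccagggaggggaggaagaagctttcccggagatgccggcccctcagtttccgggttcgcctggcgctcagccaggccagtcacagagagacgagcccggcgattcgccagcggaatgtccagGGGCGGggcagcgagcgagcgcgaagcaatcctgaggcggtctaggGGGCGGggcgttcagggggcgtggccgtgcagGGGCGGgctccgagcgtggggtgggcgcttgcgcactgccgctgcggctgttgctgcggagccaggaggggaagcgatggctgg
SDHA, chr5:218070-218369, plus strand: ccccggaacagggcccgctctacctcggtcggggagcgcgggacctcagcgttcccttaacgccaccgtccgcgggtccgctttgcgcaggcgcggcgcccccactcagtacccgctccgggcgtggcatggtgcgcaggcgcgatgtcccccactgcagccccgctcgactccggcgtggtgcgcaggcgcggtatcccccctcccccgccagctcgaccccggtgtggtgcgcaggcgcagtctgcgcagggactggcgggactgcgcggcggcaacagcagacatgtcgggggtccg

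Promoter windows were found for 8 of the 9 genes, with 2 start sites for IDH1. The window of IDH2 belonged to another start than that of its main transcript and is not printed, and OGDH had no entry. All 4 printed windows were rich in G and C, with 67.3% (CS), 64.7% (IDH1), 70.0% (IDH3A) and 74.7% (SDHA), against a median of 58.7% over 35116 promoters. They held 26, 20, 30 and 41 CpG dinucleotides, against a median of 14. GGGCGG lay in 5 of the 8 genes with a window (CS, IDH1, IDH3A, SUCLA2 and FH), and in 45.0% of all promoters of this length. CCAAT lay in 4 of them (CS, IDH1, SUCLA2 and FH), and in 34.6% of all promoters. CCGGAAG, an ETS motif, lay in MDH2 and in 10.3% of all promoters. The members' windows held none of the letters GCATGCGC of NRF1 (3.05% of all promoters), CACGTG of the E-box (7.26%), TGATGNAA of the CARE motif (3.62%) or TCACNCCA of the sterol response element (3.95%), searched on both strands. No marked matches overlapped. A match describes these letters in this window and is not a measured binding site.

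CS condenses acetyl-CoA with oxaloacetate to citrate and lies at chr12:56271699-56300391 on the minus strand (GENCODE v44, GRCh38). Its level was 150.3, 147 and 146 FPKM with Gln added, 128, 126 and 119.6 FPKM at 12 h, and 103, 105 and 104 FPKM at 24 h. The 3 groups did not overlap, and each was lower than the one before. The log2 fold change against Gln added was −0.25 ± 0.03 (SE, n = 3 libraries a group, limma adjusted p = 9.58e-05) at 12 h and −0.51 ± 0.03 (adjusted p = 3.23e-07) at 24 h. The mean at 24 h was 70.3% of the mean with Gln added.

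IDH1 makes cytosolic NADPH and 2-oxoglutarate from isocitrate and lies at chr2:208236229-208266074, minus strand. It was the most abundant member in all 9 libraries, with 347, 339 and 356 FPKM with Gln added. It dropped to 224, 232 and 241 FPKM at 12 h and was 211, 224 and 224 FPKM at 24 h. The deprived libraries lay below all Gln added libraries, but those of 12 h and 24 h overlapped. For IDH1 the log2 fold change was −0.58 ± 0.04 at 12 h (limma adjusted p = 5.36e-07) and −0.66 ± 0.04 at 24 h (adjusted p = 1.35e-07). Between 12 h and 24 h the difference was −0.08 with a 95% interval of −0.17 to 0.01 (adjusted p = 0.188).

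IDH2 is the mitochondrial NADP-dependent counterpart of IDH1 and lies at chr15:90083045-90102477, minus strand. Its libraries held 51.1, 49.9 and 49.7 FPKM with Gln added, 35.1, 36.5 and 32.8 FPKM at 12 h, and 24.0, 23.7 and 23.6 FPKM at 24 h. The groups were fully separate, and the mean at 24 h was 47.4% of that with Gln added. The log2 fold change was −0.53 ± 0.04 at 12 h (limma adjusted p = 1.70e-06) and −1.07 ± 0.04 at 24 h (adjusted p = 5.49e-09), the largest fall among the 9 genes at 24 h. Its 95% interval at 24 h, −1.17 to −0.98, lay below the intervals of the other 8 genes.

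IDH3A is the catalytic subunit of the NAD-dependent isocitrate dehydrogenase, the mitochondrial enzyme usually drawn in the cycle, and lies at chr15:78131498-78171945, plus strand. Its level was 9.78, 9.82 and 10.2 FPKM with Gln added, 9.32, 9.66 and 10.3 FPKM at 12 h, and 9.07, 9.61 and 9.88 FPKM at 24 h. All groups overlapped. The log2 fold change was −0.03 at 12 h (95% interval −0.14 to 0.08, limma adjusted p = 0.644) and −0.06 at 24 h (−0.18 to 0.05, adjusted p = 0.307), and the value at 12 h turned to 0.00 with a positive sign when all libraries were rescaled to the same FPKM total. These intervals do not show that its mRNA was unchanged. Of the exonic bases of IDH3A, 38.8% are also covered by genes on the opposite strand (ACSBG1 and CIB2). Whether the counting used strand is not given in the sources used here, so reads of these genes may be included in its value, and their part was not tested.

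OGDH is the first component of the 2-oxoglutarate dehydrogenase complex, which takes up the carbon that enters from Gln, and lies at chr7:44606572-44709066, plus strand. Its level was 12.6, 12.7 and 11.4 FPKM with Gln added, 8.80, 8.77 and 8.31 FPKM at 12 h, and 9.23, 8.74 and 8.95 FPKM at 24 h. It had fallen at 12 h, and its mean was not lower at 24 h. OGDH changed by −0.50 ± 0.05 on the log2 scale at 12 h (limma adjusted p = 1.64e-05) and −0.44 ± 0.05 at 24 h (adjusted p = 3.02e-05). Between the deprived groups it was 0.06, with a 95% interval of −0.06 to 0.17 (adjusted p = 0.501).

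SUCLA2 is the ADP-forming beta subunit of succinyl-CoA ligase and lies at chr13:47745736-48037968, minus strand. Its libraries held 21.0, 20.1 and 21.3 FPKM with Gln added, 16.6, 17.3 and 17.7 FPKM at 12 h, and 15.2, 17.4 and 16.7 FPKM at 24 h. Both deprived groups lay below the Gln added libraries and overlapped with each other. On the log2 scale SUCLA2 changed by −0.27 ± 0.05 at 12 h (limma adjusted p = 0.00110) and −0.34 ± 0.05 at 24 h (adjusted p = 0.000198).

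SDHA is the flavoprotein subunit of succinate dehydrogenase, which is also complex II of the respiratory chain, and lies at chr5:218303-257082, plus strand. Its level was 27.9, 28.3 and 28.4 FPKM with Gln added, 27.0, 27.8 and 28.5 FPKM at 12 h, and 29.3, 26.0 and 26.9 FPKM at 24 h. The highest and the lowest of the 9 libraries both belonged to the 24 h group. The log2 fold change was −0.02 at 12 h (95% interval −0.12 to 0.08, limma adjusted p = 0.701) and −0.04 at 24 h (−0.15 to 0.06, adjusted p = 0.434). Both values turned positive, at 0.01 and 0.00, after rescaling to the same FPKM total. SDHA has 6 named pseudogene entries in the annotation and shares 21.7% of its exonic bases with another gene model on the same strand, so its value is uncertain to the extent that reads were split.

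FH, which hydrates fumarate to malate, lies at chr1:241497511-241519799, minus strand. Its level was 40.3, 39.2 and 39.8 FPKM with Gln added, 31.2, 32.8 and 31.7 FPKM at 12 h, and 29.0, 27.5 and 27.6 FPKM at 24 h. The 3 groups were separate. Log2 fold changes were −0.32 ± 0.04 at 12 h (limma adjusted p = 3.04e-05) and −0.50 ± 0.04 at 24 h (adjusted p = 7.02e-07).

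MDH2, the mitochondrial malate dehydrogenase that regenerates oxaloacetate, lies at chr7:76048051-76067508, plus strand. Its libraries held 80.0, 78.5 and 75.2 FPKM with Gln added, 69.8, 65.9 and 62.7 FPKM at 12 h, and 60.1, 63.8 and 57.3 FPKM at 24 h. The deprived libraries lay below the Gln added libraries, and 1 library of 24 h lay above the lowest of 12 h. Against Gln added the log2 fold change was −0.24 ± 0.05 at 12 h (limma adjusted p = 0.00212) and −0.37 ± 0.05 at 24 h (adjusted p = 8.38e-05).

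**Figure D2:**
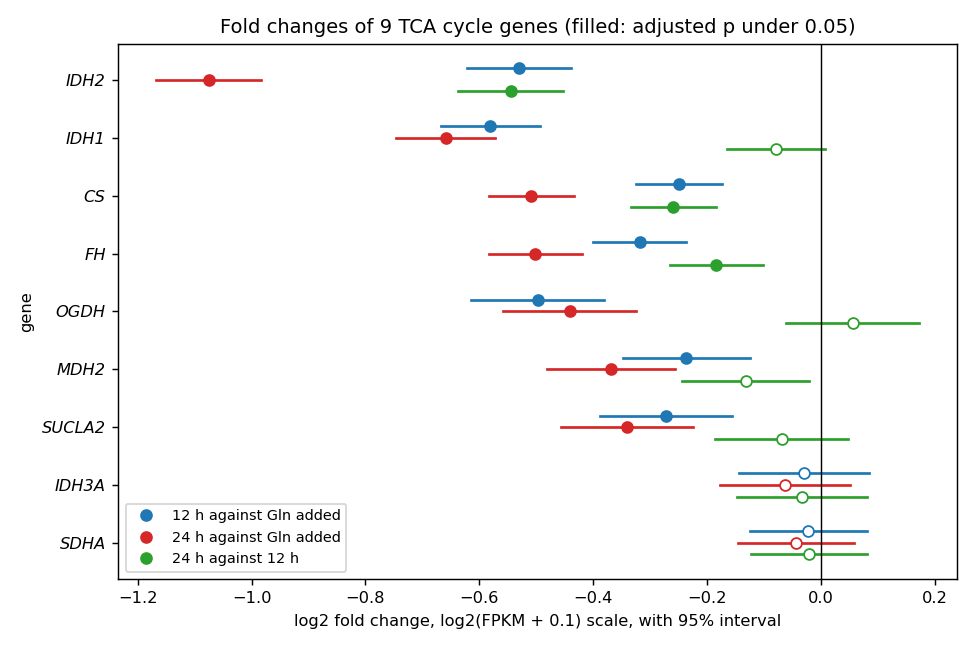
Log2 fold changes of the 9 genes on the log2(FPKM + 0.1) scale (horizontal axis) for the 3 comparisons, with 95% intervals. Filled points passed an adjusted p of 0.05. The points of IDH3A and SDHA lie near 0 in all comparisons, and IDH2 at 24 h lies furthest to the left at −1.07.

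The second question was whether the cycle genes went on changing between 12 h and 24 h, a difference whose value does not use the Gln added libraries, although they enter the spread of the test. IDH2, CS and FH fell further, and none of the 9 genes rose, against 20.1% of all tested genes called (9.57% higher and 10.5% lower). With median-ratio scaling the split over all genes was 847 higher and 1692 lower instead of 1137 and 1249, and the same 3 members were lower. IDH2 dropped by as much again in the second interval, with a log2 fold change of −0.54 ± 0.04 (limma adjusted p = 1.73e-05). CS changed by −0.26 ± 0.03 (adjusted p = 0.000467) and FH by −0.18 ± 0.04 (adjusted p = 0.00607). For these 3 genes all 24 h libraries lay below all 12 h libraries. The median over the 9 genes was −0.08, against 0.02 over all tested genes.

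The other 6 genes did not pass this test. Their intervals ran from −0.24 to −0.02 for MDH2, from −0.17 to 0.01 for IDH1, from −0.19 to 0.05 for SUCLA2, from −0.15 to 0.08 for IDH3A, from −0.12 to 0.08 for SDHA and from −0.06 to 0.17 for OGDH. For MDH2, with −0.13 and adjusted p = 0.0921, the call depended on the fit and on single libraries. It passed with all 9 libraries when the replicate number was a block (adjusted p = 0.0361), and also without replicate 3 of 12 h (−0.17, limma adjusted p = 0.0479) and without replicate 2 of 24 h (−0.17, adjusted p = 0.0444), in a range of 0.0361 to 0.2885 over all its alternatives.

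Each gene was also compared alone, by two-sided exact permutation of 3 libraries against 3, which cannot go below p = 0.1. The 7 called genes reached exact p = 0.1 at both times against Gln added. Any gene whose libraries do not overlap between the 2 groups reaches this value. The share of all tested genes that do so was not computed, so the count has no background beside it. By limma, 60.2% of all tested genes were called at 12 h and 64.7% at 24 h. For IDH3A the exact p was 0.5 at 12 h and 0.3 at 24 h, and for SDHA it was 0.5 and 0.4. Between 12 h and 24 h the exact p was 0.1 for CS, IDH2 and FH, 0.2 for MDH2, 0.3 for IDH1 and OGDH, 0.5 for SUCLA2 and IDH3A, and 0.7 for SDHA.

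The third question was whether the cytosolic and the mitochondrial isoforms of a step changed to the same extent, which a ratio within a library answers without any scaling between libraries. The IDH1 to IDH2 ratio of FPKM was 6.79, 6.79 and 7.17 with Gln added, 6.39, 6.36 and 7.33 at 12 h, and 8.79, 9.45 and 9.49 at 24 h. It overlapped between Gln added and 12 h, where both genes had fallen, and was higher in all 24 h libraries, where IDH2 but not IDH1 had fallen further past the test. On the log2 scale the ratio differed by −0.05 at 12 h (exact permutation p = 0.6) and by 0.42 at 24 h (p = 0.1, 0.15 after adjustment over 9 such tests), and 3 against 3 libraries cannot give less than 0.1.

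The ratio of MDH1, the cytosolic malate dehydrogenase, to MDH2 was lower in all deprived libraries. It was 1.84, 1.90 and 1.94 with Gln added, 1.43, 1.46 and 1.66 at 12 h, and 1.63, 1.49 and 1.67 at 24 h. MDH1 itself fell from 148 to 96.2 FPKM in the mean at 24 h, a log2 fold change of −0.62, against −0.37 for MDH2. The log2 ratio differed by −0.32 at 12 h and −0.25 at 24 h, both at the smallest exact permutation p of 0.1 (0.15 adjusted).

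Most members work in complexes, and their partner subunits were counted from a list of 13 other genes of the cycle. Of the 12 that were tested, 11 were lower and none higher at 12 h and again at 24 h, with list medians of −0.39 and −0.40. Over all tested genes, 31.0% were lower at 12 h and 31.7% at 24 h, with medians of −0.02 and 0.01. OGDHL was too low to be tested. Between 12 h and 24 h, SUCLG2 alone was lower (−0.26, limma adjusted p = 0.01004), where 10.5% of all tested genes were lower. After median-ratio scaling 3 genes of the list were lower in that comparison, and 14.2% of all tested genes.

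Around the 2 members that did not pass the test, the partner subunits were lower. IDH3B and IDH3G, which join IDH3A in the NAD-dependent enzyme, changed by −0.41 and −0.68 at 12 h and by −0.36 and −0.48 at 24 h (limma adjusted p from 1.98e-05 to 0.000386). SDHB, the iron-sulfur subunit, and SDHC and SDHD, the membrane anchors of complex II, changed by −0.18, −0.40 and −0.41 at 24 h (adjusted p = 0.000793, 1.82e-05 and 0.00508). The intervals of SDHB and SDHA at 24 h, −0.26 to −0.11 and −0.15 to 0.06, overlapped, and the differences between subunits were not tested. Of the 4 assembly factors of complex II, SDHAF2 (0.31) and SDHAF1 (0.30) were higher at 24 h, and SDHAF4 (−0.71) and SDHAF3 (−0.25) were lower. Their limma adjusted p ran from 0.000168 to 0.00900. Among all tested genes 64.7% were called at this time, 33.0% as rises and 31.7% as falls. The 4 factors had a middle log2 fold change of 0.03, against 0.01 for all tested genes.

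For the called members the partners moved in the same direction. DLST and DLD, the other components of the OGDH complex, changed by −0.33 and −0.42 at 24 h, beside −0.44 for OGDH. SUCLG1, the alpha subunit that SUCLA2 binds, changed by −0.37, and SUCLG2, the GDP-forming alternative to SUCLA2, by −0.86, the second largest fall of that list after ACO1 (−0.97). IDH3B, IDH3G, DLST, DLD and SUCLG1 are named to complete the complexes and were chosen after their values were seen.

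**Figure D3:**
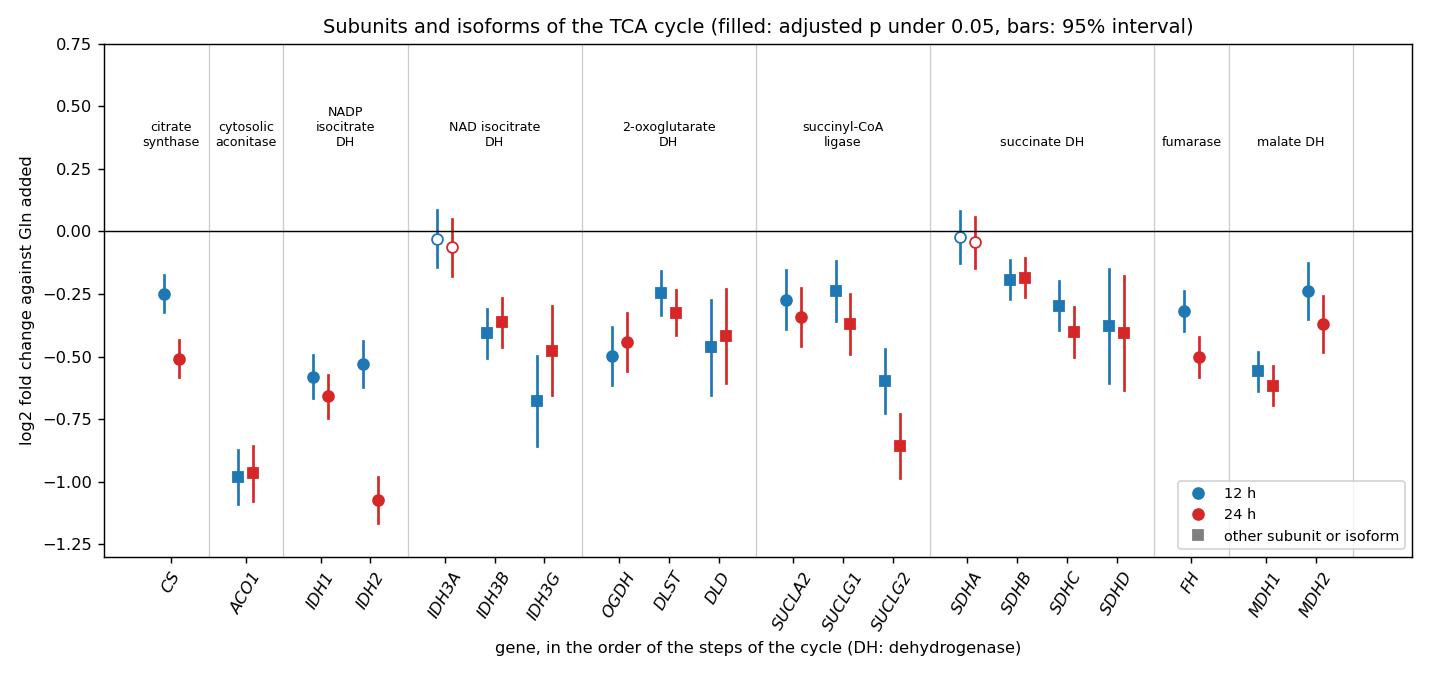
Log2 fold changes against Gln added at 12 h and 24 h (vertical axis, log2(FPKM + 0.1) scale, 95% intervals) for the 9 genes (circles) and 11 of their partner subunits and isoforms (squares), in the order of the cycle. Filled symbols passed an adjusted p of 0.05. IDH3A and SDHA are the genes plotted with open symbols at both times.

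Across the 9 libraries, the FPKM of the 7 called members had pairwise Pearson r from 0.790 (CS and OGDH) to 0.996 (CS and IDH2). The value was 0.980 for IDH2 and FH and 0.967 for CS and FH, and CS, IDH2 and FH stepped down at both times. IDH1 had its highest r with SUCLA2 (0.968), then with FH (0.945) and OGDH (0.924), so the correlations did not separate the genes by the time of their drop. SDHA had its highest r with FH (0.441) and its lowest with IDH3A (0.025). These correlations describe 9 libraries in 3 groups that share controls and depth, and carry no test. Over 5111 genes of at least 10 FPKM in the mean, the profile of IDH2 on this log2 scale was most like those of SRRT (r = 0.998), CDT1 (0.997) and KIF22 (0.997). KIF22, a kinesin, went from 55.2 to 37.6 and 25.4 FPKM, and CDT1, a replication licensing factor, from 18.4 to 13.7 and 10.1 FPKM.

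IDH1 is known to respond to the sterol regulatory element binding proteins, so a list of 12 targets in sterol metabolism was set beside it. In the 11 genes of the list that were in the table, all 11 were lower at 12 h, with a median log2 fold change of −1.81. At 24 h 10 were lower and 1 was higher. Over all tested genes, 31.0% were lower at 12 h, and 31.7% were lower and 33.0% higher at 24 h. MVD (−2.21) and LSS (−2.16) fell most at 24 h, both enzymes of cholesterol synthesis, beside −0.66 for IDH1. With either other scaling, 10 of the 11 were called lower at 12 h. The part of this shift in the fall of IDH1 was not tested.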

How the data were processed

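RNA-seq of 9 HepG2 libraries was analysed, 3 with Gln added and 3 each deprived of Gln for 12 h and 24 h. According to the methods, the authors aligned reads to GRCh38 with STAR, and the submitters' processing notes name HTSeq, R 3.2.0 and GRCh38. The values deposited are FPKM, 1 for each gene in each library, without any stated scaling between libraries. The labels name another library kit than the methods do, so the strandedness of the libraries is not settled. Every column of the table carried the name of 1 library in the labels, with 0 left unmatched.

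FPKM are not counts, so values were tested with limma 3.58.1 under R 4.3.3, by lmFit and trended eBayes, on log2(FPKM + 0.1). Genes below a mean of 0.5 FPKM were left out. The 3 groups were in 1 fit, with Benjamini-Hochberg adjustment over the genes tested at 0.05. For low genes, this scale makes fold changes smaller than they are. Steps between FPKM values gave whole fragments for 100% of 22587 genes (within 0.02 of a whole number), whose sums were 99.99% of the solved totals, and these served as depth and in limma's voom. With voom, 7312, 7857 and 2639 genes were called at 12 h, at 24 h and between them. No pair of replicates agreed within sampling noise. Fits were tested on simulated data. Single values were compared by exact permutation tests in scipy 1.17.1, adjusted over 9 tests of isoform ratios.

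All 9 members are named. From each list of related genes (other cycle subunits, complex II assembly, pyruvate entry, anaplerosis and exit of carbon, mitochondrial biogenesis, sterol targets) the rule names at most 2 rises and 2 falls at 24 h, the largest with an adjusted p under 0.05, and the isoform partners and complex II subunits. The members and lists were chosen with earlier results of these data known. Some genes that the rule selects are left out of the text here. Positions come from GENCODE 44 and promoters from RefSeq. Alternatives were other pseudocounts, filters, scalings, 2-group fits, untrended eBayes, a block for the replicate number, voom, and each library left out.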

Additional observations from a re-analysis of the deposited data

Results flagged for a closer look

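CS, IDH2 and FH differed between 12 h and 24 h of Gln deprivation by the direct test of the 2 times, and so changed by different amounts against the same Gln added libraries. The log2 difference of 24 h against 12 h was −0.54 for IDH2 (limma adjusted p = 1.73e-05), −0.26 for CS (adjusted p = 0.000467) and −0.18 for FH (adjusted p = 0.00607). All 3 libraries of 24 h lay below all 3 of 12 h for each gene, in a comparison where 20.1% of all tested genes were called. Over the alternatives the value ran from −0.59 to −0.51 for IDH2, from −0.30 to −0.24 for CS and from −0.22 to −0.16 for FH, and each stayed past the threshold.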

How the results depend on the processing

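Of 513 member fold changes recomputed under an alternative, 503 kept their direction and their side of the threshold, 3 newly passed it and 7 changed sign. Between 6455 and 7434 genes were called at 12 h, 7034 to 7882 at 24 h and 1652 to 2639 in the comparison of the deprived groups (1769 with only these 2 groups), and members called were 7, 7 and 3 to 4. The largest shift of a member's log2 fold change was 0.05, and no called member lost its call in the alternatives run. All 7 sign changes concern IDH3A and SDHA, whose intervals span 0. After rescaling to the same FPKM total, IDH3A at 12 h was 0.0037, SDHA at 12 h 0.0113 and SDHA at 24 h 0.0041. With 1 library left out, IDH3A ranged from −0.0666 to 0.0021 at 12 h and from −0.0649 to 0.0038 between 12 h and 24 h, and SDHA from −0.0705 to 0.0146 between 12 h and 24 h. The cause was not tested. Whether the replicate numbers pair the samples is not settled. Over 5112 genes, deviations from the group mean correlated at −0.11 to 0.50 in 9 same-number pairs and at −0.61 to 0.37 in 18 other pairs. Between 12 h and 24 h the same-number values were 0.50, −0.09 and 0.49 for numbers 1, 2 and 3. With the replicate number as a block, 7341, 7802 and 2586 genes and 7, 7 and 4 members were called, the added member being MDH2 between 12 h and 24 h (−0.13, limma adjusted p = 0.0361, in a range of 0.0361 to 0.2885 over its alternatives). Of the genes called between 12 h and 24 h, 33.4% were higher with median-ratio scaling and 47.7% without. Depth limits IDH3A, SUCLA2 and OGDH most, at 1039 to 2212 fragments a library.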

Other observations

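Genes of pyruvate entry and its control were mostly lower, those of enzymes and carriers as well as those of kinases that inhibit pyruvate dehydrogenase. Of 12 tested genes of this list, 9 were lower at 12 h, and 10 were lower and 1 higher at 24 h, with list medians of −0.41 and −0.39. Over all tested genes, 31.0% were lower at 12 h, and 31.7% lower and 33.0% higher at 24 h. The mitochondrial pyruvate carrier genes MPC1 (−0.79) and MPC2 (−0.61) had the largest falls at 24 h, and PDPR, a regulatory subunit of pyruvate dehydrogenase phosphatase, was the gene that rose (0.24). The inhibitory kinases PDK1 (−0.44), PDK2 (−0.34) and PDK3 (−0.45) were among the genes lower at 24 h, and were named after their values were seen. After rescaling to the same FPKM total, 8 and 9 genes were lower.

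Genes of anaplerosis and of the exit of carbon from the cycle moved in both directions. Of 20 tested genes, 6 were higher and 12 lower at 12 h and at 24 h. Over all tested genes, 29.1% were higher and 31.0% lower at 12 h, and 33.0% and 31.7% at 24 h. The share of the list that rose was thus close to that of all genes. GOT1, the cytosolic aspartate aminotransferase, rose from 75.1 to 142 FPKM in the mean at 24 h (0.91), and PCK2, the mitochondrial phosphoenolpyruvate carboxykinase, from 47.8 to 88.1 FPKM (0.88). SLC25A1, the mitochondrial citrate carrier, fell from 115 to 49.5 FPKM (−1.21), and GPT, an alanine aminotransferase, from 2.13 to 1.10 FPKM (−0.91). Among 9 tested regulators of mitochondrial biogenesis, 6 were higher at 12 h, 4 were higher at 24 h and none was lower at either time, where 29.1% and 33.0% of all tested genes were higher. At 24 h the share of the list called in either direction was below the 64.7% of all tested genes. PPARGC1A, a transcriptional coactivator of mitochondrial genes, rose from 1.16 to 3.92 FPKM at 24 h (1.68), and ESRRA, a nuclear receptor it binds, from 15.3 to 24.3 FPKM (0.66). These counts were the same under both other scalings.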
